A study of Mus musculus with 8 samples.

Results

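The microRNA miR-155 is processed from BIC, a spliced transcript on mouse chromosome 16, and the 10 genes described here (Mrpl39, Jam2, Atp5j, App, Cyyr1, Adamts1, Adamts5, N6amt1, Usp16 and Cct8) lie beside it on that chromosome, and those measured start within 3 Mb after BIC. They were chosen by name and position, not by how they moved: every array feature that carries one of these names was taken. Of the 10 genes, 9 had a feature, with 16 features in all among 44170 on the array and 24203 named genes. Adamts5, which encodes an aggrecanase, is not analysed here. Between knockout and wild-type spleens 0 of the 9 genes passed the threshold used, an adjusted p under 0.05 over all features in limma. Of all 44170 features 0 (0%) passed, so this count does not set the flanking genes apart. The widest difference, that of App, rested mainly on 2 of the 4 knockout animals.

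The RNA came from 4 spleens of mice with the genotype given as mir-155 knockout (females Mim1-5 and Mim1-6, males Mim2-2 and Mim2-3) and 4 wild-type spleens (females WT-1 and WT-3, males WT-2 and WT-4). Each was hybridised with Cy3 to its own 1-colour NimbleGen array. The knockout allele, the strain of either genotype, the age of the mice and any treatment are not given in the sources used here. Among the knockouts, the labelled sex and the name prefix Mim1 or Mim2 mark the same animals and cannot be told apart.

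The comparison asks whether genes beside the targeted locus differ in level between the genotypes. miR-155 is known for its roles in B cells, T cells and macrophages, where BIC is induced on activation. Its neighbours serve other functions. Mrpl39 and Atp5j encode mitochondrial proteins, Cct8 a subunit of a folding machine of the cytosol, Usp16 and N6amt1 enzymes that modify other proteins, App and Jam2 proteins of the cell surface, and Adamts1 a secreted protease.

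The sequences below are those the knockout is meant to lack, taken from RefSeq with the coordinates of build GRCm38.p6. The hairpin lies at chr16:84714140-84714204 on the plus strand. In both mature arms the capitals mark the seed, bases 2 to 8, which pairs with target transcripts, and in the hairpin they mark the mature arms.
mmu-miR-155-5p: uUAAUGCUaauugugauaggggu
mmu-miR-155-3p: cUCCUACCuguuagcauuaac
Mir155 hairpin: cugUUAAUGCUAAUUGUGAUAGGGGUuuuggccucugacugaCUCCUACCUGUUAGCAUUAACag
The arms differ in their seeds, so the locus makes microRNAs of separate seed families.

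The 8 arrays had similar brightness, with median intensities of 112.1 to 119.1 on the linear scale, and 81.1% to 85.1% of features lay above the random probes, which stood at log2 4.94 to 5.24. The arrays of Mim2-2 and Mim2-3 stood apart: they correlated with the other 6 at r = 0.811 to 0.877 and with each other at 0.874, where the other 6 correlated among themselves at 0.911 to 0.943 over all features. Genes of B cells, the main lymphocytes of spleen, were bright on all arrays, with list means of 10.17 to 11.08 in knockout spleens and 9.18 to 9.60 in wild-type spleens. So were genes of mammary epithelium, a cell type that spleen does not hold, with list means of 10.51 and 10.34 on the Mim1 arrays, 8.02 and 9.01 on the Mim2 arrays and 10.97 to 11.29 on the wild-type arrays. Of its 25 genes, 21 lay above the random probes on all 8 arrays and 0 lay at or under them on all. The labelled sexes were not separated by Xist, the X inactivation transcript, which read 8.35 to 11.10 in labelled males and 9.52 to 10.91 in labelled females. Here "male" and "female" mean labelled so.

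BIC was read by 1 feature, at chr16:84713276-84715489 in build MM9. On the knockout arrays it read 7.51 in Mim1-5, against 5.37, 5.28 and 5.46 in the other 3 animals, and the wild-type values were 5.27, 4.84, 4.85 and 5.63. The random probes were exceeded in 4 of 4 knockout and 2 of 4 wild-type animals, and the knockout values other than that of Mim1-5 lay within the wild-type range. The knockout minus wild type difference was 0.76 ± 0.50 on the log2 scale (SE, limma adjusted p = 0.521), and is inexact because 2 wild-type values lay under the random probes. Whether its probes lie in the deleted part is not known, so these values check nothing about the knockout.

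Across the flanking genes, each by its brightest feature, the differences ran both ways, from -1.10 in App to 0.46 in Atp5j. With the brightest feature standing for each gene, 6 read higher and 3 lower in the knockout, with a median difference of 0.025 and a median size of 0.22, beside a median of 0.060 and a median size of 0.40 over all 24203 named genes. limma called 0 of the 9 genes at an adjusted p under 0.05, where it called 0 of all features (0%). At an unadjusted p under 0.05 stood 1 of 9, App, lower in the knockout, where 14.3% of all named genes had such a p and 6.61% had it with a lower value. The 4 knockout and the 4 wild-type arrays overlapped in all 9 genes, and they did not overlap in 7.83% of all named genes, 2.55% with the knockout lower. Over all 16 features of these genes, 2 were higher and 2 lower at an unadjusted p under 0.05, where 13.9% of all features had such a p, 6.98% higher and 6.88% lower. In 2 features that were higher and 1 that was lower the genotypes did not overlap, where 7.34% of all features did not, 4.7% higher and 2.64% lower.

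**Figure D1:**
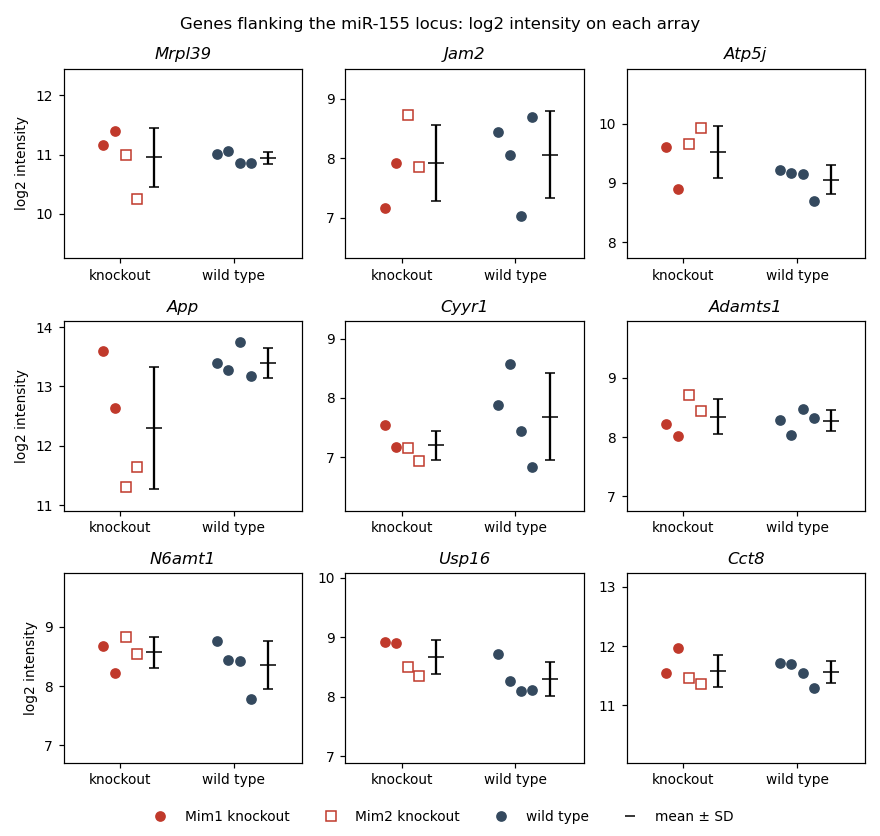
Log2 intensity of the brightest feature of each of the 9 genes on every array, with 4 knockout arrays left and 4 wild-type arrays right in each panel (filled red Mim1, open red Mim2, dark wild type) and the mean ± SD beside them; each panel has its own range of equal height. Genotypes overlap in all 9 panels, and in App the open Mim2 points, at 11.31 and 11.65, lie below all other arrays.

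The nearest of the genes to BIC was Mrpl39. It lies at chr16:84718525-84735426 in build MM9, 3 kb after BIC, and encodes a protein of the large subunit of the mitochondrial ribosome. The knockout animals Mim1-5, Mim1-6, Mim2-2 and Mim2-3 read 11.16, 11.40, 11 and 10.25, and the wild-type animals 1 to 4 read 11.01, 11.06, 10.86 and 10.86. The 2 Mim1 arrays lay above all wild-type arrays and Mim2-3 below all of them. The means were 10.95 ± 0.50 in knockout spleens and 10.95 ± 0.10 in wild-type spleens (SD, n = 4 each). The difference of 0.0039 ± 0.31 (SE) had a 95% interval of -0.69 to 0.69 (limma adjusted p = 0.998). Within females it was 0.34 and within males -0.34, and the difference between the sexes did not pass (limma adjusted p = 0.628).

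Jam2 (chr16:84774367-84823129), 58.9 kb after BIC, encodes an adhesion molecule of endothelial junctions that binds Jam3 and an integrin on lymphocytes. With the animals in the same order, its brighter feature, BC028778, read 7.17, 7.93, 8.73 and 7.86 in knockout spleens and 8.44, 8.05, 7.04 and 8.70 in wild-type spleens. High and low arrays occurred in both genotypes, and the difference was -0.14 ± 0.41 (SE, 95% interval -1.05 to 0.78, limma adjusted p = 0.906). The dimmer feature, AK045095 (chr16:84774367-84811241), read 5.39, 6.00, 5.54 and 5.93 in knockout spleens and 7.16, 6.00, 6.50 and 6.73 in wild-type spleens. Here the 4 knockout values all lay under the 4 wild-type values, although Mim1-6 and WT-2 differed by only 0.0018. The difference was -0.88 ± 0.33 (SE, limma adjusted p = 0.317, exact permutation p = 0.0286, the smallest that 70 arrangements can give). It was -1.13 in females and -0.63 in males. The contrast between the 2 features on the same array did not differ between genotypes beyond its spread, at -0.74 (exact permutation p = 0.286).

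Genes of endothelial cells, which express Jam2, had list means of 8.65 to 9.34 on knockout arrays and 8.24 to 8.76 on wild-type arrays, and their part in the values of Jam2 was not tested. Of 8 measured JAM proteins and partners of Jam2, 4 read higher and 4 lower, 0 passed, and the median was -0.12. The integrin gene Itgb1 averaged 11.18 ± 0.65 in knockout spleens and 12.23 ± 0.49 in wild-type spleens (SD, n = 4 each). Jam3, which binds Jam2, averaged 8.51 ± 0.52 in knockout spleens and 7.46 ± 0.13 in wild-type spleens, without overlap (SD, n = 4 each, limma adjusted p = 0.282), and the polarity gene Pard3 differed by -1.24.

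Atp5j (chr16:84828115-84835246), 112.6 kb after BIC, encodes coupling factor 6 in the stalk of the mitochondrial ATP synthase. Its log2 values were 9.60, 8.90, 9.66 and 9.93 on the knockout arrays and 9.22, 9.17, 9.15 and 8.69 on the wild-type arrays. Mim1-6 lay among the wild-type animals, and the other 3 knockout animals above all of them. The means of 9.52 ± 0.44 in knockout spleens and 9.06 ± 0.24 in wild-type spleens (SD, n = 4 each) differed by 0.46 ± 0.32 (SE, 95% interval -0.25 to 1.18, limma adjusted p = 0.536, exact two-sided permutation p = 0.114). In females the difference was 0.068 and in males 0.86.

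Other genes of the ATP synthase and of the mitochondrial ribosome did not pass either. Of 15 measured ATP synthase genes other than Atp5j, 0 passed, 6 read higher and 9 lower, with a median difference of -0.080. Atp5d, which encodes the delta subunit, had the smallest p (limma adjusted p = 0.345). It averaged 11.98 ± 0.67 in knockout spleens and 12.75 ± 0.29 in wild-type spleens (SD, n = 4 each). Atp5j2 and Atp5o, of the membrane part and the stalk, differed by -0.29 and -0.27. In Atp5j2 the genotypes did not overlap, as in 7.83% of all named genes. Of 46 genes of the large mitochondrial ribosomal subunit, 29 read higher and 17 lower, 0 passed, and the median was 0.13. Mrpl17, Mrpl34 and Mrpl14 differed by -0.71, 0.57 and -0.49, and of these only Mrpl14 had genotypes that did not overlap.

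The App feature lies at chr16:84954687-85056771, 239.2 kb after BIC. The promoter window of App given below, in build GRCm38.p6, lies past the end of this feature. App encodes the amyloid precursor protein, a membrane protein that secretases cut. It was the flanking gene with the largest difference and the widest spread. The knockout values were 13.59 and 12.64 on the Mim1 arrays and 11.31 and 11.65 on the Mim2 arrays, and the wild-type values 13.40, 13.27, 13.75 and 13.17. Mim1-5 lay within the wild-type range, Mim1-6 below it, and both Mim2 arrays farther below. The means were 12.30 ± 1.03 in knockout spleens and 13.40 ± 0.25 in wild-type spleens (SD, n = 4 each), a difference of -1.10 ± 0.37 (SE, 95% interval -1.94 to -0.26). It did not pass over all features (limma adjusted p = 0.296, exact permutation p = 0.114).

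The App difference was larger within males, the Mim2 knockouts, though the contrast of the sexes did not pass. It was -1.74 ± 0.43 within males and -0.46 ± 0.43 within females (SE, limma adjusted p = 0.0636 and 0.985), where 4.24% of all features passed within males and 0% within females. The difference between the sexes, -1.28 ± 0.60, did not pass (limma adjusted p = 0.417). Without both Mim2 arrays no male knockout remains, and with the sex term the fit gives the difference within females again, -0.46 for App. It is thus no separate evidence. The unadjusted limma p of that fit was 0.323 (6.17% of all features were under 0.05). The mammary list was lowest on the same 2 arrays, as given above. With the mean of that list as a further term App differed by -0.049 (limma adjusted p = 0.996). That mean also separates the genotypes, so the term takes out genotype difference as well. Mim2-2 and Mim2-3 were also the highest arrays for B cell genes (11.08 and 10.85) and T cell genes (9.14 and 8.92). The same held for genes of red pulp macrophages, stromal cells and endothelial cells, but not for erythroid or pancreatic acinar genes. Only the mammary list was tried as a term, so whether App follows that list in particular was not tested. Fewer cells of a type and less RNA per cell cannot be told apart in RNA of a whole organ.

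**Figure D2:**
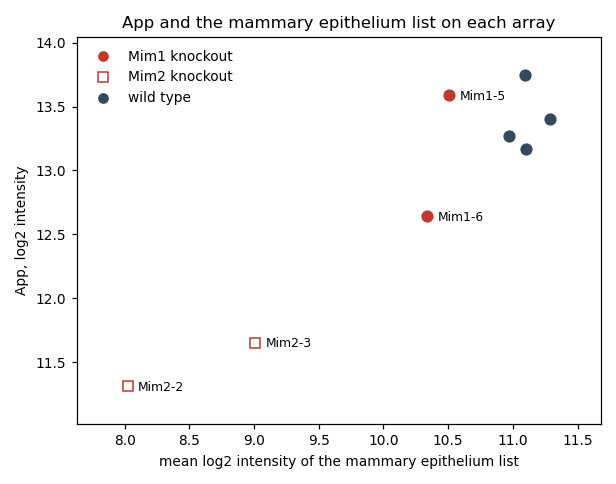
App log2 intensity (vertical) against the mean log2 intensity of the 25-gene mammary epithelium list (horizontal), 1 point per array; red filled points are Mim1 knockouts, red open squares Mim2 knockouts and dark points wild types. Mim2-2 and Mim2-3, at list means of 8.02 and 9.01, have the lowest App values, 11.31 and 11.65. Both arrays were also extreme in other cell type lists, which are not drawn.

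Genes that process App included several that read lower on the knockout arrays. Of 14 measured relatives and processing enzymes, 6 read higher and 8 lower, 0 passed, and the median was -0.50, against 0.060 over all named genes. Ide, a protease that degrades amyloid beta, averaged 8.42 ± 1.04 in knockout spleens and 9.71 ± 0.32 in wild-type spleens (SD, n = 4 each). Mme, another such protease, averaged 6.88 ± 1.56 in knockout spleens and 8.57 ± 0.44 in wild-type spleens. Mme exceeded the random probes in 3 of 4 knockout animals, so its difference is inexact. The median of the list was 0.0017 without both Mim2 arrays, which is its median within females.

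Cyyr1, 742.2 kb after BIC, encodes a cysteine and tyrosine rich membrane protein whose function is little known. Its brighter feature, BC125594 (chr16:85457657-85550412), read 7.54, 7.17, 7.16 and 6.95 in knockout spleens and 7.89, 8.57, 7.44 and 6.84 in wild-type spleens. The knockout values lay within the wild-type range, and the difference was -0.48 ± 0.40 (SE, 95% interval -1.38 to 0.41, limma adjusted p = 0.606). The dimmer feature, BC099957 (chr16:85456489-85550618), read 6.87, 6.47, 7.14 and 7.43 in knockout spleens and 5.93, 6.01, 6.37 and 5.74 in wild-type spleens. All 4 knockout arrays lay above all 4 wild-type arrays, by at least 0.10. The means of 6.98 ± 0.41 in knockout spleens and 6.01 ± 0.27 in wild-type spleens (SD, n = 4 each) differed by 0.97 ± 0.31 (SE, limma adjusted p = 0.289, exact permutation p = 0.0286).

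The 2 Cyyr1 features thus ran opposite ways. The contrast of the dimmer minus the brighter feature, taken on each array, was -0.22 ± 0.57 in knockout spleens and -1.67 ± 0.72 in wild-type spleens (SD, n = 4 each), without overlap (exact permutation p = 0.0286). Among such contrasts over all genes with more than 1 feature, 5.64% of 17683 did not overlap. The difference of the dimmer feature was 0.52 within females and 1.41 within males (limma adjusted p = 0.984 and 0.0762). The sources used here do not say which transcripts each feature reads.

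Adamts1, 1080 kb after BIC, encodes a secreted metalloprotease that cuts the proteoglycans versican and aggrecan. The brighter feature, BC040382 (chr16:85795005-85803344), read 8.21, 8.02, 8.70 and 8.44 in knockout spleens and 8.28, 8.04, 8.47 and 8.32 in wild-type spleens. These values hardly spread, and the difference was 0.067 ± 0.28 (SE, 95% interval -0.57 to 0.70, limma adjusted p = 0.936). The dimmer feature, BC050834 (chr16:85794072-85803344), read 6.20, 6.46, 6.81 and 7.01 in knockout spleens and 6.07, 6.16, 5.45 and 4.69 in wild-type spleens. Every knockout array lay above every wild-type array, by at least 0.041, and the WT-4 value lay under the random probes. The difference of 1.03 ± 0.40 is therefore inexact (SE, limma adjusted p = 0.325, exact permutation p = 0.0286). The contrast between the 2 features overlapped between genotypes, at 0.96 (exact permutation p = 0.0857).

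**Figure D3:**
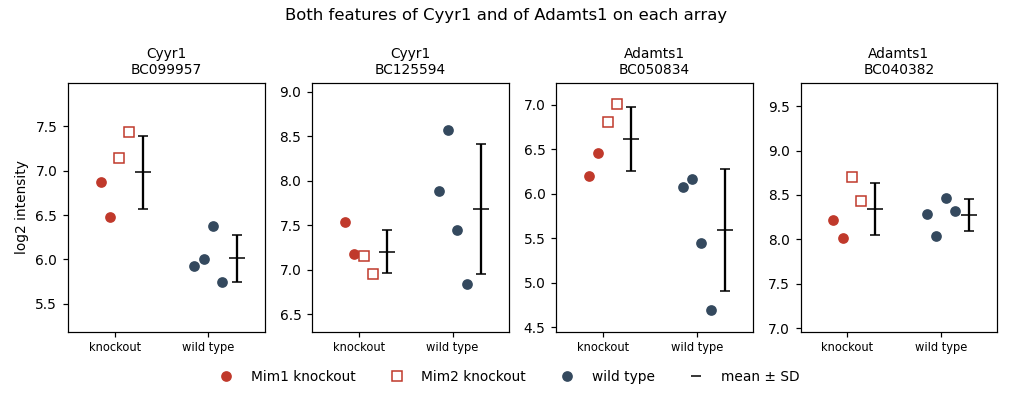
Log2 intensity of both features of Cyyr1 and of Adamts1 on every array, knockout left and wild type right in each panel, with the mean ± SD. The dimmer features, BC099957 and BC050834, have all knockout points above all wild-type points, and the brighter features of the same genes overlap.

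Genes of stromal cells, which express Adamts1, had list means of 9.17 to 9.81 on knockout arrays and 8.85 to 9.16 on wild-type arrays, and their part in the Adamts1 values was not tested. Of 15 measured genes of the ADAMTS family, 4 read higher and 11 lower, 0 passed, and the median was -0.47. Adamts17 exceeded the random probes in 1 of 4 knockout and 4 of 4 wild-type animals. Its means were 4.82 ± 0.53 in knockout spleens and 6.04 ± 0.31 in wild-type spleens (SD, n = 4 each), without overlap. Adamts7 and Adamts20 differed by -0.96 and 1.30. Of 5 measured substrates and inhibitors, 3 read higher and 2 lower, 0 passed, and the proteoglycan genes Bcan, Acan and Vcan differed by 1.09, 0.38 and -0.42.

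N6amt1, Usp16 and Cct8 lie close together at the far end of the window. N6amt1 (chr16:87354429-87368894), 2639 kb after BIC, encodes a methyltransferase that modifies a glutamine of the translation release factor eRF1. Its brightest feature read 8.68, 8.22, 8.83 and 8.54 in knockout spleens and 8.76, 8.43, 8.43 and 7.79 in wild-type spleens, 2 ranges that lie over each other. The difference was 0.22 ± 0.31 (SE, 95% interval -0.49 to 0.92, limma adjusted p = 0.786). Its other 3 features differed by 0.33, 0.14 and -0.11, with overlap in each. Of its partner Trmt112, the release factors and Hemk1, 4 genes measured, 1 read higher and 3 lower and 0 passed. The release factor gene Gspt1 averaged 9.09 ± 0.46 in knockout spleens and 10.13 ± 0.31 in wild-type spleens, without overlap (SD, n = 4 each, limma adjusted p = 0.288). Hemk1 and Trmt112 differed by -0.57 and 0.091.

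Usp16 (chr16:87455300-87483758), 2740 kb after BIC, encodes a protease that takes ubiquitin off histone H2A. Its brighter feature read 8.92, 8.91, 8.50 and 8.34 on the knockout arrays and 8.72, 8.27, 8.10 and 8.11 on the wild-type arrays. Both Mim1 arrays lay above all wild-type arrays, and the Mim2 arrays lay below WT-1 and above the rest. The difference was 0.37 ± 0.28 (SE, 95% interval -0.26 to 0.99, limma adjusted p = 0.573, exact permutation p = 0.114). The dimmer feature, AK018212, ran the same way at 0.57 ± 0.46 (SE, limma adjusted p = 0.599), with 3 of 4 wild-type arrays above the random probes. Of 8 measured enzymes that add ubiquitin to H2A or remove it, 4 read higher and 4 lower and 0 passed. Rnf2, which adds ubiquitin to H2A, averaged 9.74 ± 0.36 in knockout spleens and 8.38 ± 0.38 in wild-type spleens, without overlap (SD, n = 4 each, limma adjusted p = 0.262). Its partner Bmi1 differed by 1.06 and Usp22 by -1.27.

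Cct8 (chr16:87484119-87496072), 2769 kb after BIC, encodes the theta subunit of the chaperonin CCT, which folds actin and tubulin. It read 11.55, 11.97, 11.46 and 11.36 in knockout spleens and 11.71, 11.69, 11.55 and 11.30 in wild-type spleens. The genotypes covered nearly the same range, with a difference of 0.025 ± 0.27 (SE, 95% interval -0.59 to 0.64, limma adjusted p = 0.975). The other CCT subunits did not pass either: of 8 measured, 4 read higher and 4 lower, with a median of 0.066. Cct3, Cct7 and Cct4 differed by 0.58, -0.40 and 0.38.

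**Figure D4:**
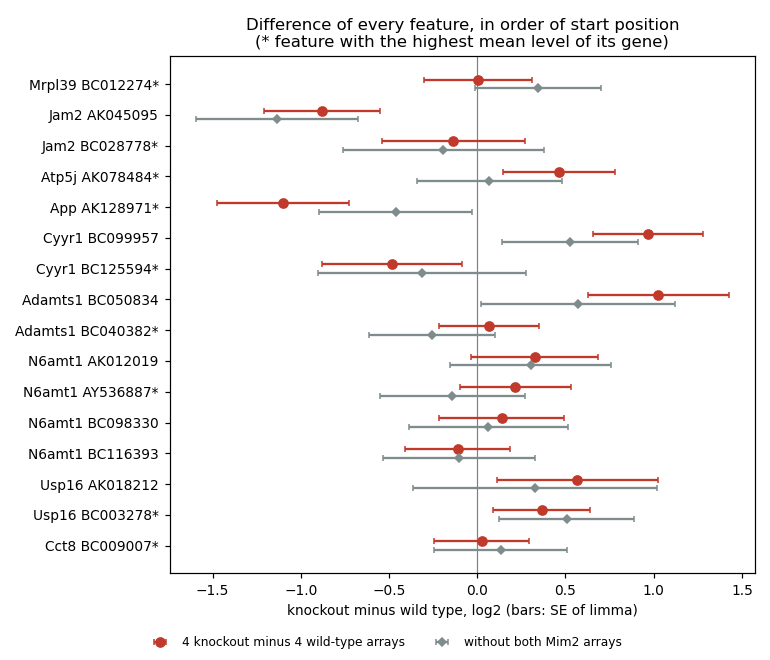
Knockout minus wild type difference on the log2 scale (horizontal) of all 16 features, from the top in order of start position; red points use 4 knockout and 4 wild-type arrays, grey diamonds leave out both Mim2 arrays, and bars are the SE of limma. App stands at -1.10 with all arrays and at -0.46 without the Mim2 arrays, and the Jam2 feature AK045095 at -0.88 and -1.13. The differences without the Mim2 arrays equal those within females, as no male knockout remains.

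Higher and lower values both occurred near BIC and far from it. The 15 other named genes within 3 Mb of BIC had a median difference of -0.054, with 7 higher, 8 lower and 0 passing. The 11 of these above the random probes on all 8 arrays had a median of -0.20, with 4 higher and 7 lower. At an unadjusted p under 0.05 stood 3 of the 15 (20%), where 14.3% of all named genes had such a p. In 1 (6.67%) the genotypes did not overlap, where 7.83% of all named genes did not. That 1 was the predicted gene Gm6229, 2919 kb before BIC, with 7.04 ± 0.94 in knockout spleens and 5.48 ± 0.37 in wild-type spleens (SD, n = 4 each, limma adjusted p = 0.266). Bach1, a transcription repressor of heme responses and a published target of miR-155, lies 2984 kb after BIC and differed by -0.95 ± 0.29 (SE, limma adjusted p = 0.281). Gm2557, 1338 kb after BIC, differed by 1.52 but exceeded the random probes in 1 of 4 wild-type animals. Over the 738 genes of the rest of chromosome 16 the median was 0.089 and 7.05% did not overlap.

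**Figure D5:**
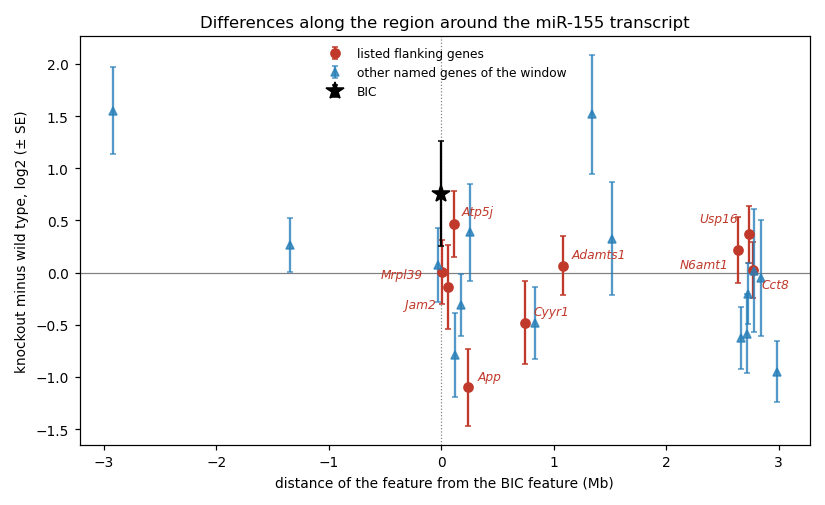
Knockout minus wild type difference on the log2 scale (vertical, ± SE of limma) against the distance of the feature from the BIC feature in Mb (horizontal), 1 point per gene; red circles are the 9 flanking genes, blue triangles the 15 other named genes of the window and the star BIC. App, at -1.10, and the predicted gene Gm6229, at 1.55, lie at opposite ends of the vertical range.

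The gene next to Atp5j on the other strand, Gabpa, encodes an ETS transcription factor and was singled out here after its values were seen. Of the 2 Atp5j start sites in the RefSeq table, 1 lies head to head with that of Gabpa, 148 bp apart, and the other lies past the Gabpa start, so that those transcripts overlap. Gabpa read 7.70, 8.95, 6.86 and 7.47 in knockout spleens and 8.22, 8.55, 9.22 and 8.16 in wild-type spleens. The difference was -0.79 ± 0.40 (SE, limma adjusted p = 0.416), opposite in sign to the 0.46 of Atp5j, and neither passed. Mim2-2, the lowest array for Gabpa, was the second highest for Atp5j.

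Promoter windows of 300 bases, 250 before and 50 after the start in GRCm38.p6, were in the RefSeq table for 8 of the 10 genes. The core CCGGAAG bound by ETS factors, searched on both strands, was in a window of 3 of these 8 genes, Atp5j, Usp16 and Cct8, beside 9.93% of all 27025 genes of the table (8.86% of 32851 windows). Atp5j has 2 windows, and the core is in the 1 that faces Gabpa and not in the other. These 3 are shown because they share that core, in capitals, and App because its difference was the largest of the 9. The windows lie on the minus strand for Atp5j, Cct8 and App and on the plus strand for Usp16.
Atp5j chr16:84834927-84835226: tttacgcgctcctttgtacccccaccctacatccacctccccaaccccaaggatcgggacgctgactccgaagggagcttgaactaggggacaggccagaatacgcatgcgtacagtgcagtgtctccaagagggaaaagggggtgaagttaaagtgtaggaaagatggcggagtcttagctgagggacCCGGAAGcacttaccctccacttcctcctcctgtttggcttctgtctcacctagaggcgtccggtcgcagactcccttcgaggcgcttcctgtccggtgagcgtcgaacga
Usp16 chr16:87454735-87455034: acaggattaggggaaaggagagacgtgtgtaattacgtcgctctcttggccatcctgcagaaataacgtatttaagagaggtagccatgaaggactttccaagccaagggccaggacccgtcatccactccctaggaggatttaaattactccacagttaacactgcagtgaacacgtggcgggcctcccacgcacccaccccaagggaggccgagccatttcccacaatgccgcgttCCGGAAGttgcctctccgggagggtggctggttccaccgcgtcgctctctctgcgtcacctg
Cct8 chr16:87495820-87496119: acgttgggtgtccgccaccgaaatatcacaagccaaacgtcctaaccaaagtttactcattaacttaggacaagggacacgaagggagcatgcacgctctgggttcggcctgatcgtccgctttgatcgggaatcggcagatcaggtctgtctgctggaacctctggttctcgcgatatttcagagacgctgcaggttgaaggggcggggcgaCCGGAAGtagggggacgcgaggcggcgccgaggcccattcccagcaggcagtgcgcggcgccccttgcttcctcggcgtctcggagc
App chr16:85173658-85173957: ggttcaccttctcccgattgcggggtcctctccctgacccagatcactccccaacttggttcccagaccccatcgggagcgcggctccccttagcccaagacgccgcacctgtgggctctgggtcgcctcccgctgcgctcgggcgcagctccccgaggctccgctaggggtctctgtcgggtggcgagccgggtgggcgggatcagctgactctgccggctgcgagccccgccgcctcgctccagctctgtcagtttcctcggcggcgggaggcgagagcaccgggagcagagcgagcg
The core begins 61, 12 and 37 bases before the start in Atp5j, Usp16 and Cct8, whose differences of 0.46, 0.37 and 0.025 did not pass. The window of App holds no match. A match is a stretch of letters and not a measured site, and this motif was chosen after the windows had been read.

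The genes with the most variable levels were App, Jam2 and Cyyr1, with an SD over the 8 arrays of 0.91, 0.64 and 0.57. The genes nearest to each in pattern were found over 15832 genes above the random probes on all 8 arrays, by the root mean square difference of profiles with their own means taken off. Nearest to App were Atp11a, Sorbs3 and Nrbp2, at 0.16, 0.17 and 0.17 on the log2 scale, and these differed between the genotypes by -1.21, -0.89 and -1.30. Nearest to Jam2 were Gng8, Dok6 and Tnni1, at 0.21, 0.23 and 0.24. Nearest to Cyyr1 were Macrod1, Serf1 and Fzd8, at 0.15, 0.17 and 0.19. None of these 9 genes is on chromosome 16.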

How the data were processed

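Total RNA of 8 spleens was labelled with Cy3 by NimbleGen, per the labels. Each array has its own table, in which the authors deposited linear intensity values per feature. The submitters' processing notes name RMA, a method of background correction, normalization and probe summary, without a version. Of 44170 features, 44155 rest on 3 probes. Positions are those of build MM9, per the file headers. The deposited standard error score of each feature entered no test. An entry of 5000 random probes served as background. A deposited table of the series holds 21856 of the features, with the same values within a relative tolerance of 1e-05.

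Values were taken to log2 with no second normalization. All features were fitted with limma 3.58.1 (lmFit, eBayes) under R 4.3.3, with genotype and labelled sex as additive terms, two-sided, and Benjamini-Hochberg adjustment over 44170 features at a threshold of 0.05. A fit with their interaction gave the difference in each sex. Exact two-sided permutation tests used all 70 arrangements of the arrays. Each gene was represented by its brightest feature over the 8 arrays. Features of the same gene were compared in level to choose the brightest. Contrasts between the brightest feature of a gene and another were taken on each array. Levels of features of different genes were not compared.

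The genes, the lists and the fits were chosen with earlier results of these data known. The text names all the flanking genes, BIC, the 3 genes of smallest p among the chromosome 16 neighbours and in each list of partner genes, where none passed (not in the cell type lists, given as means), and the 3 genes nearest in pattern to the 3 most variable members. A gene that this rule takes is not reported here. The code was tested on simulated data. The samples are separate spleens per the series text. The number of arrays limits the precision.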

Additional observations from a re-analysis of the deposited data

Results flagged for a closer look

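Of 34 groups of 4 values examined, 2 had 1 animal far from the other 3, where chance gives about 1 in 20. BIC read 7.512 in Mim1-5, against 5.28 to 5.46 in the other knockout animals. Atp5j read 8.693 in WT-4, against 9.15 to 9.22 in the other wild-type animals.

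The brighter Adamts1 feature differed between knockout and wild type in opposite directions in the labelled sexes: -0.26 in females, with the knockout mean below the wild-type mean, and 0.39 in males. Both female knockout arrays lay below both female wild-type arrays, and both male knockout arrays above both male wild-type arrays. The nearest were close, at 8.21 in Mim1-5 and 8.28 in WT-1, and 8.44 in Mim2-3 and 8.32 in WT-4. With 2 arrays a side such an order can easily arise by chance, and its share over all features was not counted. The difference between the sexes was 0.6501 on the log2 scale and did not pass in limma (adjusted p = 0.604). Labelled sex and the Mim1 or Mim2 prefix cannot be told apart here.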

How the results depend on the processing

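In all 18 alternative settings, 0 of the 9 genes passed at an adjusted p under 0.05. Apart from trend and robust variance, 0 of all features or genes fitted passed in any of them. There the count could not set these genes apart. App kept its direction in each of the 18 settings, from -1.42 to -0.049. Its lowest adjusted p in limma, 0.141, came under trend and robust variance. Atp5j (0.050 to 0.69) and Usp16 (0.22 to 0.54) also kept theirs. Of 162 values, 143 kept their direction and 19 turned, all of them differences that had not passed. With trend and robust variance, 16 features were called in place of 0, with 0 in these genes, and 578 in place of 0 for the difference between the sexes. The cause was not tested.

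App alone had an unadjusted p under 0.05, and that count of 1 was 0 without both Mim2 arrays, 0 with the mammary term and 0 to 1 when 1 array was left out, 0 being without WT-2. The count of genes without overlap, 0 in the report, was 1 with the mean of all features of a gene. That gene was Adamts1, whose dimmer feature, with WT-4 under the random probes, did not overlap by itself. In this setting the share over all genes was not counted. The count was 2 without both Mim2 arrays (Mrpl39 and Usp16, both higher in the knockout), where 16.4% of all named genes did not overlap. It was 0 to 1 without 1 array. These were App without Mim1-5 (13.5% of named genes), Atp5j without Mim1-6 (16.5%) and Usp16 without WT-1 (11%), in each case the array whose removal ends the overlap. The settings with arrays left out were added to this count after seeing the data.

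Differences that turned without both Mim2 arrays, where the fit gives the difference within females, were Adamts1, to -0.2579, and N6amt1, to -0.1415. With the mammary term these were -0.4764 and -0.3657. Cyyr1 was 0.2439 with the mean of its features and Cct8 was -0.0298 with array weights. When 1 array was left out, Mrpl39 ran from -0.1134 to 0.2214, Jam2 from -0.4068 to 0.1556, Adamts1 from -0.05346 to 0.1711 and Cct8 from -0.07951 to 0.1233. Cyyr1 ran from -0.7934 without WT-4 to -0.1016 without WT-2, and N6amt1 from 0.01572 without WT-4 to 0.3802 without Mim1-6. No paired analysis was possible because the knockout and wild-type animals share no replicate numbers. The 8 arrays limit what can be resolved.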

Other observations

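The other cell type lists read beside the flanking genes differed between the genotypes as follows, each as the mean log2 intensity of its genes on 4 arrays (SD, n = 4 each). T cell genes, 14 measured, averaged 8.76 ± 0.33 in knockout spleens and 8.0 ± 0.21 in wild-type spleens. Genes of red pulp macrophages, 10 measured, averaged 10.05 ± 0.34 in knockout spleens and 9.36 ± 0.23 in wild-type spleens. Erythroid genes, 12 measured, averaged 9.23 ± 0.57 in knockout spleens and 9.78 ± 0.13 in wild-type spleens. Only the Mim1 arrays were low in that list, at 8.87 and 8.62. The Mim2 arrays, at 9.75 and 9.67, lay within the wild-type range of 9.62 to 9.94. Genes of pancreatic acinar cells, 9 measured, averaged 7.08 ± 0.38 in knockout spleens and 5.81 ± 0.10 in wild-type spleens, and 3 of the 9 lay above the random probes on all arrays. In each list 0 genes passed in limma at an adjusted p under 0.05, where 0% of all features did. Their part in the values of the flanking genes was not tested.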
